A study of Mus musculus with 7 samples.

Results

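Accessible chromatin was described at 9 genes of bile duct cells (cholangiocytes) and liver progenitor cells, namely Krt7, Krt19, Krt8, Krt18, Sox9, Sox4, Epcam, Cd24a and Spp1. Members were the consensus ATAC-seq regions that overlapped one of these genes or the 10 kb on either side of it in GENCODE M21, which held for 11 of the 55680 regions. The 11 regions belonged to 6 of the 9 genes. The study compared ATAC-seq of whole liver from male C57BL/6N mice aged 3 months (young, 3 samples) and 18 months (aged, 4 samples), and the labels name no treatment or genetic change in either group. In ATAC-seq a transposase inserts sequencing adapters into exposed DNA, so that the read count of a region measures its accessibility. The paper counts 4 aged biological replicates, although the 4 aged samples came from 3 animals. Of these, 1 animal gave 2 samples from different lobules, and the labels do not say which. The aged samples were therefore treated as 4 samples here, and the p-values below measure in part the spread within 1 liver. In whole tissue, fewer cells of a type and less accessible chromatin per cell cannot be told apart.

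Bile ducts are lined by cholangiocytes, an epithelium that shares its fetal precursor with the hepatocytes around it. Hepatocytes carry the keratin pair of simple epithelia, keratin 8 and keratin 18, while cholangiocytes add keratin 7 and keratin 19. Sox9 and Sox4 are transcription factors that act in bile duct formation, Epcam and Cd24a are surface proteins of ductal and progenitor cells, and Spp1 (osteopontin) is a secreted phosphoprotein of ductal cells and activated macrophages. Progenitor-like cells that arise next to the ducts after injury share most of these markers.

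Counts in all regions summed to between 5709327 and 25461110 in young and between 4474652 and 11717992 in aged samples, and no value column was left unassigned. Accessibility is given as CPM, the count scaled to the library total, after TMM normalization of the libraries, and levels of different regions are compared as CPM per kb of region. Ratios of counts within a library, given below for some pairs of regions, are not per length and serve only to compare samples. The ages were tested against each other by the quasi-likelihood method of edgeR, p-values were adjusted over all 55680 regions after Benjamini and Hochberg, and a region is called more or less accessible at an adjusted p under 0.05.

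The keratins that mark cholangiocytes had no accessible region. No consensus region lay within 10 kb of Krt7 (ENSMUSG00000023039.17, chromosome 15, 101411043 to 101430313, plus strand), of Krt19 (ENSMUSG00000020911.14, chromosome 11, 100140810 to 100148665, minus strand) or of Cd24a (ENSMUSG00000047139.9, chromosome 10, 43578284 to 43584265, plus strand). The nearest region was 71.2 kb from Krt7, 133.5 kb from Krt19 and 37.1 kb from Cd24a. The set holds only places where peaks were called in 2 or more libraries, so this says that no such peak was recorded and not that reads were absent. Of 21938 protein-coding genes, 5707 (26.0%) likewise had no region within 10 kb. The 1001 bp around each start site of Krt7, Krt19 and Cd24a had 0 further copies of near-identical sequence in the genome. Of the genes most used to define a cholangiocyte, Krt7 and Krt19 thus gave no value, and the regions below are those of markers that other liver cells can also carry.

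Sequences are shown where keratin genes with and without a region can be set side by side, and for the 1 region that was called. RefSeq promoter windows (GRCm38.p6, 250 bases before to 50 after the start site) were at hand for 6 of the 9 genes. The 250 bases before the start site of Krt8 (chr15:102004343-102004592, minus strand), Krt18 (chr15:102027966-102028215, plus strand) and Krt7 (chr15:101412153-101412402, plus strand, a start site inside the GENCODE gene) are printed 5′ to 3′ with CpG dinucleotides in capitals.
Krt8: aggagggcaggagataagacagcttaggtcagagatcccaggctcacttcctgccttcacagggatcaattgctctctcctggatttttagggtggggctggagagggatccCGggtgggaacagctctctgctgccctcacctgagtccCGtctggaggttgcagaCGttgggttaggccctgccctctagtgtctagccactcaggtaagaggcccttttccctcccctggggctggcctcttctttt
Krt18: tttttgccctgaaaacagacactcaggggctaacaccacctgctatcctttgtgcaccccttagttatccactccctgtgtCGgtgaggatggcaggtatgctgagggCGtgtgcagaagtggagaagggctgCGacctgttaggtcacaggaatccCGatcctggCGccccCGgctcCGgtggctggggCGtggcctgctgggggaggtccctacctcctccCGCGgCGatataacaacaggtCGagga
Krt7: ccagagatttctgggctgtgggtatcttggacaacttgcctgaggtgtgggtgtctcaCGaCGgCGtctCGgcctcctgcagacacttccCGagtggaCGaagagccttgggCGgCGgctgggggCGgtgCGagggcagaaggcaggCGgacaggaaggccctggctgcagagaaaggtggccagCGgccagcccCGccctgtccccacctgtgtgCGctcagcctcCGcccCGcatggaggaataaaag
These stretches hold 3, 12 and 16 CpG. The whole windows of 300 bases held 6 CpG at Krt8, 17 at Krt18 and 21 at Krt7, where the median over 32851 RefSeq promoter windows was 7. The window with the most CpG among the 6 genes was therefore that of Krt7, which lay outside every accessible region, and Krt8, below the median, lay inside the region with the highest level per kb. The windows of Sox4, Epcam and Spp1 held 12, 11 and 3 CpG. The SP/KLF box GGGCGG, searched on both strands, occurred 4 times in the Krt7 window and not in those of Krt8 and Krt18, and 35.7% of all windows held it.

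The strongest accessibility per kb was found at the Krt8 start site and between Krt8 and Krt18, the genes of the keratin pair of simple epithelia. Krt8 (ENSMUSG00000049382.10, chromosome 15, 101996698 to 102004482, minus strand) and Krt18 (ENSMUSG00000023043.7, chromosome 15, 102028180 to 102032027, plus strand) are neighbours that point away from each other, with 1 accessible region at each start site and 1 between them. Keratin 8 is the type II and keratin 18 the type I partner of the intermediate filament. The Krt8 region (102002905 to 102004737, 1833 bp) covered the start site, untranslated and coding exon sequence and the start of the lincRNA Gm36026. It had 68.7, 62.9 and 66.6 CPM in young replicates 1 to 3 and 73.8, 93.0, 73.8 and 79.5 CPM in aged replicates 1 to 4. All 4 aged samples lay above all 3 young ones. The means were 66.0 ± 2.95 CPM (SD, n = 3) and 80.02 ± 9.05 CPM (SD, n = 4). The difference of 0.28 on the log2 scale (SE, the standard error, 0.11, 95% interval 0.032 to 0.522) did not pass the test (adjusted p = 0.153 by edgeR), and abundance-fitted offsets brought it to 0.005 (adjusted p = 0.991). Over all regions, 10.2% had every aged sample above every young one, against 24.0% of all protein-coding genes with a promoter region.

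At the Krt18 start site the ages overlapped. The region (102025456 to 102029047, 3592 bp, the widest of the 11) had 70.8, 56.1 and 73.2 CPM in young and 62.6, 70.4, 64.0 and 87.7 CPM in aged samples. Only aged replicate 4 lay above the young samples. The log2 fold change was 0.10 (SE 0.14, 95% interval -0.198 to 0.401, adjusted p = 0.698 by edgeR), and without aged replicate 4 it was -0.012. The intergenic region between the genes (102016060 to 102018402) lay 9778 bp before Krt18 and overlapped no promoter. It had 70.2, 60.9 and 62.0 CPM in young and 71.3, 69.4, 66.5 and 99.7 CPM in aged samples, with aged replicate 4 again the highest. Its difference of 0.26 on the log2 scale (SE 0.14, adjusted p = 0.278 by edgeR) was 0.11 without that sample. Within each library the count at Krt8 was 0.970, 1.12 and 0.910 times that at Krt18 in young and 1.18, 1.32, 1.15 and 0.907 times in aged liver, a ratio that needs no scaling between libraries and that overlapped between the ages.

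**Figure D1:**
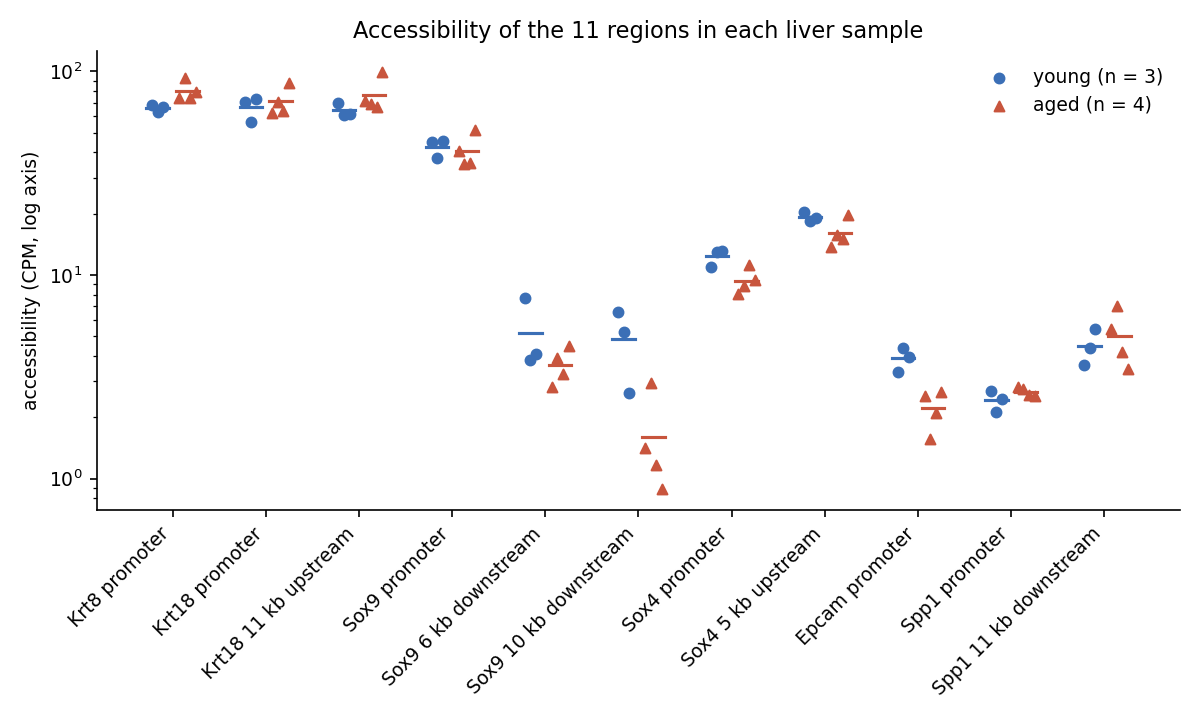
Accessibility of the 11 regions in CPM on a log axis, with a point for each young (circles) and aged (triangles) sample and bars at the means. The 3 keratin regions sit at 56.1 to 99.7 CPM in every sample, and the Sox9 region about 10 kb downstream has its 3 lowest values in aged samples.

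Among the transcription factors, the only called region of the 11 lay downstream of Sox9. Sox9 (ENSMUSG00000000567.5, chromosome 11, 112782224 to 112787760, plus strand) had a region at its start site and 2 weaker ones behind the gene. The promoter region (112780957 to 112783092, shared with the start of the noncoding transcript BC006965 on the other strand) had 45.2, 37.3 and 45.6 CPM in young and 40.5, 35.1, 35.5 and 51.7 CPM in aged samples. Aged samples lay on both sides of the young ones, and the difference was -0.053 on the log2 scale (SE 0.15, 95% interval -0.364 to 0.259, adjusted p = 0.859 by edgeR). The region just behind the gene (112788004 to 112788664, 244 bp past its end) had 7.68, 3.82 and 4.11 CPM in young and 2.81, 3.92, 3.27 and 4.45 CPM in aged samples, where young replicate 1 stood apart. Its difference of -0.53 on the log2 scale (SE 0.31, adjusted p = 0.314 by edgeR) was -0.13 without young replicate 1.

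The region 4283 bp past the end of Sox9 (112792043 to 112792580, 538 bp, between genes) was less accessible in aged liver. It had 6.57, 5.25 and 2.63 CPM in young replicates 1 to 3 and 1.41, 2.94, 1.17 and 0.891 CPM in aged replicates 1 to 4. The ages overlapped because aged replicate 2 lay above young replicate 3, while the other aged samples lay below all young ones. Mean accessibility was 4.82 ± 2.01 CPM in young (SD, n = 3) and 1.601 ± 0.918 CPM in aged liver (SD, n = 4), a change on the log2 scale of -1.68 (SE 0.40, 95% interval -2.53 to -0.828, adjusted p = 0.0290 by edgeR), or 3.21-fold lower. These values rest on 71, 139 and 16 counts in young and 16, 15, 5 and 7 counts in aged libraries. As a percentage of the count at the Sox9 promoter in the same library, the region held 14.6, 14.1 and 5.78 in young and 3.47, 8.38, 3.29 and 1.72 in aged samples, which again overlapped by aged replicate 2 and young replicate 3. The adjusted p rose above 0.05 without young replicate 1 (0.12), young replicate 2 (0.10), aged replicate 1 (0.0914) or aged replicate 3 (0.0862), with aged replicates 1 and 3 summed as if from 1 animal (0.0717), with libraries thinned to the smallest total (0.0774) and with offsets fitted on mean abundance (0.118). Calls over all regions fell as well, from 3198 to 188, 446, 402 and 651 with these samples left out in turn. They were 962 with aged replicates 1 and 3 summed, 432 with thinned libraries and 697 with offsets on mean abundance. The direction at the Sox9 region was the same in all 21 alternatives that gave a value, of which 14 kept the call.

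The central 300 bases of this region (chr11:112792162-112792461, GRCm38, plus strand) are printed with CpG in capitals.
Sox9 downstream: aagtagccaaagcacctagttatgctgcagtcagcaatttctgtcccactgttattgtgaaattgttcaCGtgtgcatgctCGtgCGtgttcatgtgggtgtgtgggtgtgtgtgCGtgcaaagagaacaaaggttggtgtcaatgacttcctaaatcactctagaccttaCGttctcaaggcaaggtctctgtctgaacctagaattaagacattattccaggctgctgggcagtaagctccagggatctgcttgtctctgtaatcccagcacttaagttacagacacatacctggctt
They held 5 CpG, where the median over the central 300 bases of 53144 regions was 4. The AP-1 site TGANTCA and the TEAD site GGAATG, both searched on both strands, were not among these letters. Of all region centres, 9.09% and 14.8% held them.

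The wider surroundings of Sox9 were chosen for description after their values were seen. Of the 6 regions between 6 and 39 kb behind the start site, each had a log2 fold change below 0, from -1.68 to -0.53 with a median of -0.85, and in 2 of them every aged sample lay below every young one, as in 11.6% of all regions. The region centred 36.5 kb behind the start site had 13.6, 7.82 and 8.39 CPM in young and 5.10, 5.88, 4.67 and 7.38 CPM in aged samples (adjusted p = 0.0812 by edgeR). The one centred at 38.2 kb had 4.81, 3.70 and 3.95 CPM in young and 2.28, 2.35, 1.17 and 2.55 CPM in aged samples (adjusted p = 0.0757). With offsets fitted on mean abundance the 6 values ran from -1.32 to -0.28, with a median of -0.62. Of all regions outside promoters, 59.0% were below 0, and 46.2% with those offsets. The 2 regions before Sox9, at -49.6 and -42.4 kb, had log2 fold changes of 0.30 and 0.11 (adjusted p = 0.340 and 0.888).

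**Figure D2:**
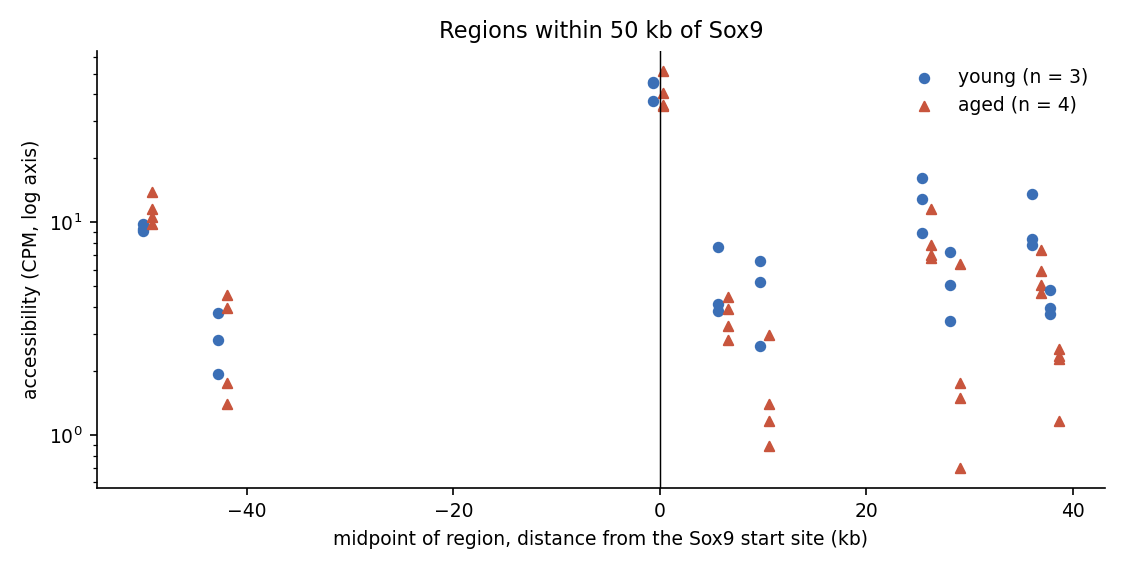
Accessibility in CPM on a log axis of the 9 regions within 50 kb of Sox9, by the distance of the region's midpoint from the start site in kb, with a point for each young (circles) and aged (triangles) sample. In the 2 regions farthest behind the gene all aged samples lie below all young ones, and at the promoter the ages overlap.

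Sox4 (ENSMUSG00000076431.4, chromosome 13, 28948919 to 28953713, minus strand), a gene with a single exon, had lower mean accessibility in aged liver at both of its regions, and neither passed the test. The promoter region (28952316 to 28953963) had 10.9, 13 and 13.2 CPM in young and 8.08, 8.83, 11.2 and 9.42 CPM in aged samples. Aged replicate 3 overlapped the young samples and the other aged samples lay below them. The log2 fold change was -0.41 (SE 0.19, 95% interval -0.812 to -0.012, adjusted p = 0.191 by edgeR). The region 4135 bp before the start site (28957848 to 28959851) had 20.3, 18.3 and 19.1 CPM in young and 13.7, 15.7, 14.9 and 19.7 CPM in aged samples, of which only aged replicate 4 reached the young values. Its log2 fold change was -0.26 (SE 0.16, adjusted p = 0.342 by edgeR). Of the 2 Sox4 regions the upstream one had the higher level per kb in young liver, at 9.59 ± 0.489 against 7.5 ± 0.757 CPM per kb (SD, n = 3).

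Of the surface proteins only Epcam, a cell adhesion molecule of ductal epithelium, could be measured. Epcam (ENSMUSG00000045394.9, chromosome 17, 87635979 to 87651129, plus strand) had 1 region (87636567 to 87637106, 540 bp) that began 588 bp behind the first start site and covered the start of a further annotated transcript, with untranslated and coding exon sequence. It had 3.33, 4.38 and 3.95 CPM in young and 2.55, 1.57, 2.10 and 2.67 CPM in aged samples. All 4 aged samples lay below all 3 young ones, as in 11.6% of all regions and 7.81% of all protein-coding genes with a promoter region. The log2 fold change of -0.77 (SE 0.29, 95% interval -1.39 to -0.159) did not pass the test (adjusted p = 0.116 by edgeR, 0.0753 to 0.464 over 21 alternatives, in which the value ran from -0.894 to -0.457). The counts were 36, 116 and 24 in young and 29, 8, 9 and 21 in aged libraries. As a percentage of the count at Krt8 in the same library, Epcam held 4.85, 6.98 and 5.93 in young and 3.45, 1.69, 2.85 and 3.36 in aged samples. Because the Krt8 region was itself higher in all aged samples, this ratio holds the differences of both regions. The Epcam region was the most GC-rich of the 11, at 77.6%, with a CpG ratio (observed over that given by its base composition) of 1.00.

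Spp1 (ENSMUSG00000029304.14, chromosome 5, 104435118 to 104441050, plus strand) had, inside the gene, the region with the lowest level per kb over all samples. This region (104436344 to 104436975) began 1226 bp behind the first start site and 152 bp behind the nearest one. It had 2.68, 2.12 and 2.47 CPM in young and 2.81, 2.75, 2.57 and 2.55 CPM in aged samples, which overlapped. The log2 fold change was 0.16 (SE 0.29, 95% interval -0.450 to 0.777, adjusted p = 0.767 by edgeR) on 11 to 56 counts per library, and it was 0.048 without young replicate 2 and 0.255 without young replicate 1. A region 5171 bp past the gene (104446221 to 104446564) had 3.61, 4.38 and 5.43 CPM in young and 5.45, 7.06, 4.202 and 3.44 CPM in aged samples. Aged samples lay on both sides of the young ones there, and the log2 fold change was 0.19 (SE 0.29, adjusted p = 0.732 by edgeR). It was 0.005 without aged replicate 2, 0.063 without young replicate 1, 0.324 without young replicate 3 and 0.353 without aged replicate 4.

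Across the 11 regions, 0 were more accessible and 1 was less accessible in aged liver. Of all regions, 2.44% were called more accessible and 3.3% less accessible (5.74% in either direction), so that 1 of 11 members is near the background. This background moved with the samples used, from 188 to 4230 calls with 1 sample left out. Without adjustment 4 of the 11 had a p under 0.05 (Krt8, the called Sox9 region, the Sox4 promoter and Epcam), against 24.6% of all regions. DESeq2 and limma voom also called 1 member less and 0 members more accessible. Over all 55680 regions they called 4691 and 4580, against 3198 by edgeR. The log2 fold changes ran from -1.68 to 0.28, with 5 above and 6 below 0. Their median was -0.053, and that of all regions was -0.035. For the 6 promoter regions the median was 0.024 against 0.094 for all 15422 promoter regions, of which 6.54% were called (4.48% more and 2.06% less accessible), and for the 5 others -0.261 against -0.091. For each of the 11 regions, 0 near-identical copies were found at another place in the genome.

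**Figure D3:**
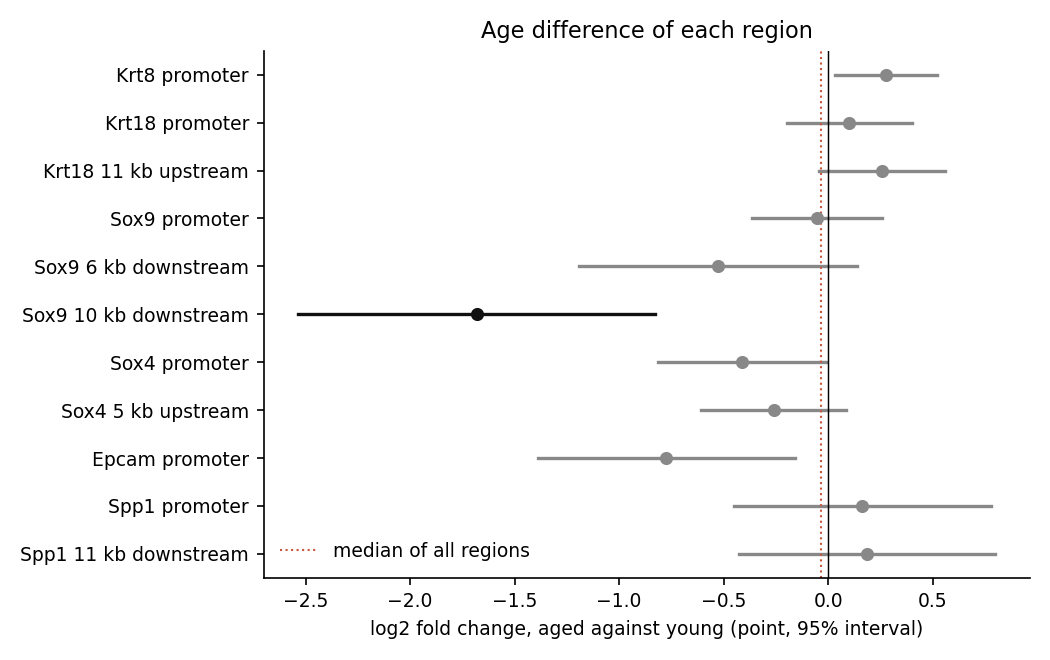
Log2 fold change of each region in aged against young liver as a point, with its 95% interval as a line. The called region is black, the others are grey and the dotted line marks the median of all regions at -0.035. Only the Sox9 region about 10 kb downstream, at -1.68, passed the test.

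Levels per kb differed widely among the genes. Taken over all samples, Krt8 stood at the 94.9th percentile of all regions and the 84.5th of promoter regions. The intergenic region between Krt8 and Krt18 followed at the 89.3rd percentile of all regions, and the promoters of Sox9 and Krt18 stood at the 75.5th and 75.2nd. These last 2 did not differ beyond their spread, at 19.98 ± 2.17 and 18.6 ± 2.57 CPM per kb in young (SD, n = 3) and 19.1 ± 3.62 and 19.8 ± 3.21 CPM per kb in aged liver (SD, n = 4). Below the median of all regions (10.8 CPM per kb) lay both Sox4 regions, both regions behind Sox9, Epcam at the 12.8th percentile and the Spp1 region inside the gene at the 3.7th. Krt8 was 36.0 ± 1.61 and Spp1 3.83 ± 0.453 CPM per kb in young liver (SD, n = 3). The members were wide, with a median of 1648 bp against 869 bp for all regions. Their median GC content was 54.8% against 49.4%, and their median CpG ratio was 0.408 against 0.247 over all regions and 0.646 over all promoter regions.

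**Figure D4:**
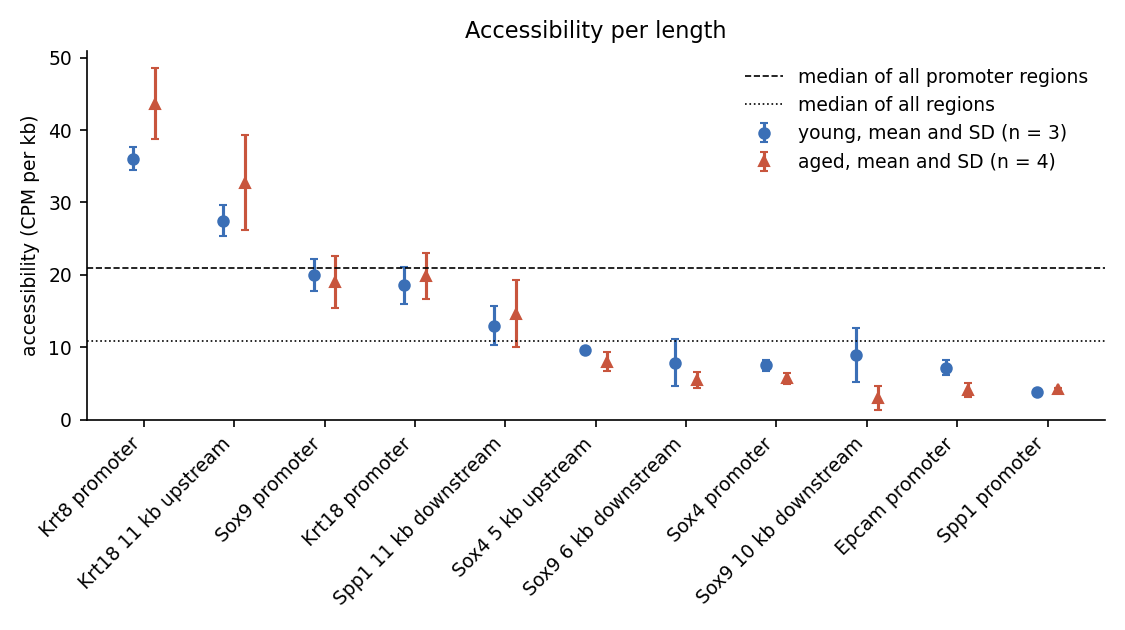
Accessibility per length of the 11 regions in CPM per kb, ordered by the mean over all samples, with the mean and SD of young (circles, n = 3) and aged (triangles, n = 4) liver. Only the Krt8 promoter and the region 11 kb before the Krt18 start site lie above the median of all promoter regions (dashed, 20.9 CPM per kb) at both ages.

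Further genes of the bile duct and of progenitor cells were read by the most accessible region that lay within 200 bp of one of their start sites. Of 70 such genes 49 had a promoter region, as had 59.4% of all 21938 protein-coding genes. Of these, 5 were more and 1 was less accessible in aged liver, while over all 13018 protein-coding genes with a promoter region 5.02% were more and 1.49% less accessible. Among transcription and signalling genes, 18 of 21 had a promoter region and 2 were called. Onecut1 (HNF6), a transcription factor of hepatocytes and bile duct precursors, rose from 128.2 ± 19.7 CPM in young (SD, n = 3) to 235.9 ± 48.4 CPM in aged liver (SD, n = 4), by 0.88 on the log2 scale (adjusted p = 0.0120 by edgeR). Elf3, an epithelial ETS factor, rose from 35.0 ± 1.86 to 50.7 ± 7.47 CPM, by 0.54 on the log2 scale (adjusted p = 0.0316 by edgeR). Of the 18, 11 had a log2 fold change above 0. No promoter region was recorded at Notch3, Ehf or Grhl2.

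Of the genes of biliary transport and cilium, 12 of 16 had a promoter region and 3 were called. Pkd1, the polycystin of the primary cilium, rose by 0.46 on the log2 scale (adjusted p = 0.0446 by edgeR) and Atp1b1, a sodium pump subunit, by 0.43 (adjusted p = 0.0323 by edgeR). Car2, a carbonic anhydrase, fell from a mean of 22.04 ± 2.35 CPM in young (SD, n = 3) to 13.2 ± 2.50 CPM in aged liver (SD, n = 4), with -0.71 on the log2 scale (adjusted p = 0.0323 by edgeR). The chloride channel Cftr and the secretin receptor Sctr, both typical of cholangiocytes, had no promoter region. Of the surface and junction genes 11 of 17 had one, and Cldn3, a tight junction protein, rose by 0.47 (adjusted p = 0.0239 by edgeR). Cldn4 and Cldn7 had none. Of the progenitor genes 8 of 16 had a promoter region and none was called, and none was recorded at Prom1, Afp, Dlk1 or Ncam1. Cdh1 (E-cadherin, an adhesion protein of epithelia), chosen after its values were seen, had the largest difference of the 49, at -1.28 on the log2 scale with overlapping ages (adjusted p = 0.0683 by edgeR). Bicc1, an RNA-binding protein, was also chosen in this way and stood at -0.73 with every aged sample below every young one, as in 7.81% of all protein-coding genes with a promoter region (adjusted p = 0.146 by edgeR).

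The median log2 fold changes of these lists were 0.073 (transcription and signalling), 0.09 (transport and cilium), -0.221 (surface and junction) and 0.075 (progenitor), and that of all 13018 protein-coding genes with a promoter region was 0.131. Of the 49 genes 27 had a value above 0, against 66.7% of all these genes. Summed promoter accessibility was 855.0 to 954.0 CPM in young and 995.1 to 1172 CPM in aged samples for transcription and signalling, where Onecut1 gave 107.6 of the mean difference of 194.4 CPM and the 16 uncalled promoters overlapped, at 697.2 to 769.5 and 768.2 to 822.6 CPM. It was 496.8 to 509.4 and 562.3 to 679.5 CPM for transport and cilium, where the 3 called promoters gave 65.8 of 107.5 CPM and the other 9 summed to 266.5 to 285.5 CPM in young and 298.7 to 349.6 CPM in aged samples. It was 252.5 to 261.8 and 285.0 to 313.2 CPM for surface and junction, where Cldn3 gave 33.5 of 36.6 CPM and the other 10 promoters overlapped between the ages. The sum of the progenitor list overlapped, at 238.8 to 247.0 and 241.7 to 283.0 CPM. Summed over all 13018 genes, promoter accessibility in aged liver was 1.158 times that in young liver. Offsets fitted on mean abundance left 0 of the 6 calls, and so did leaving out young replicate 1 or young replicate 2. Calls over all regions fell in these fits from 3198 to 697, 188 and 446. Without young replicate 3 the calls in the more and the less accessible direction were 3 and 0. They were 1 and 0 without aged replicate 1 or aged replicate 3, 5 and 0 without aged replicate 2, and 4 and 2 without aged replicate 4. Over all regions, 2651 were called without young replicate 3, 402 without aged replicate 1 and 651 without aged replicate 3. Without aged replicate 2 it was 2898, and without aged replicate 4 it was 4230.

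Markers of the other cells of the liver were read in the same way, and 1 promoter region in all of these lists was called. All 15 hepatocyte genes had a promoter region, and their sum was 1282 to 1409 CPM in young and 1488 to 1749 CPM in aged samples. Relative to the young mean the aged sums were 1.095 to 1.288, and the sum over all 13018 genes was 1.158 times that in young liver. The list had 1 gene (Apoa1) called more accessible and 14 of 15 log2 fold changes above 0, against 66.7% of all protein-coding genes with a promoter region. Of 12 stellate cell and fibroblast genes 6 had a region, with none called and 0 log2 fold changes above 0. Their sum was 56.0 to 64.3 CPM in young and 40.2 to 47.5 CPM in aged samples. The median level of their promoter regions was 5.92 CPM per kb, against 27.95 for the hepatocyte list. Des, Pdgfrb, Col1a2, Col3a1, Dcn and Acta2 had no region. The sums of the sinusoidal endothelial genes overlapped, at 87.3 to 99.1 and 69.8 to 114.7 CPM (8 of 11 with a region, none at Stab1, Lyve1 or Pecam1). Those of the Kupffer cell and macrophage genes were 7.30 to 9.16 and 3.33 to 6.87 CPM, but rested on Clec4f and Spi1, as 9 of 11 genes, Adgre1, Csf1r and Cd68 among them, had no region. None of the 12 lymphocyte genes had one. The members' own 6 promoter regions summed to 175.8 to 204.9 CPM in young and 189.1 to 233.5 CPM in aged samples and overlapped. The part of a changed mixture of cells in the member values was not tested.

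**Figure D5:**
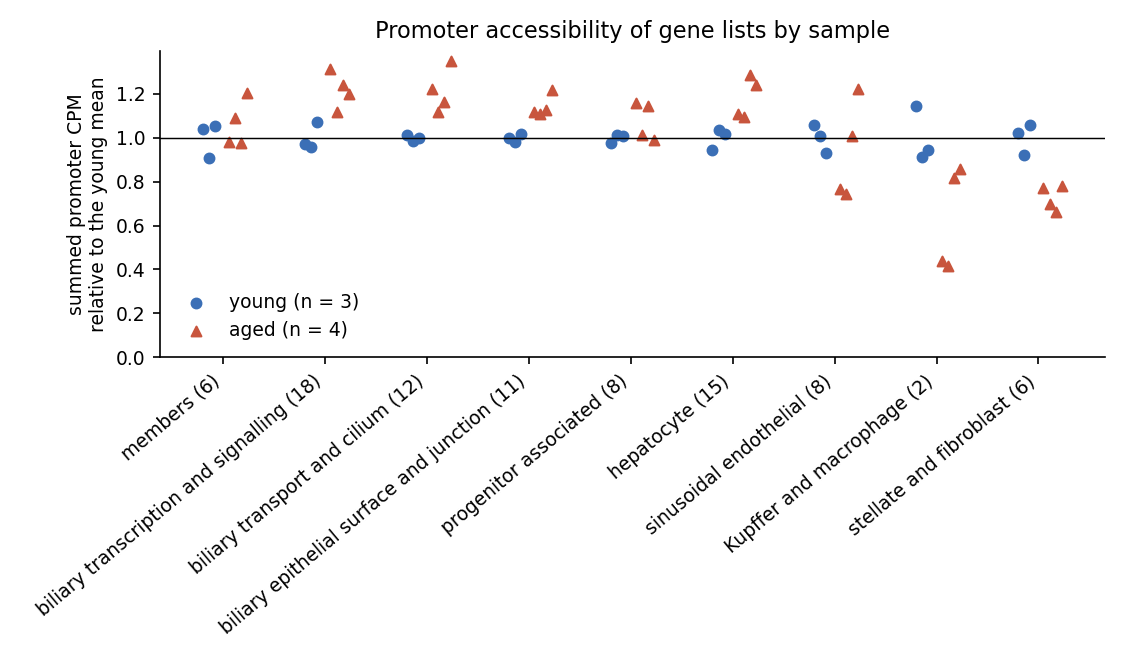
Summed promoter accessibility of each gene list in every sample, relative to the mean of the 3 young samples, with the number of genes that had a promoter region in brackets. The aged samples (triangles) of the stellate and fibroblast list lie at 0.660 to 0.780, below all young samples (circles). Those of the hepatocyte list lie at 1.095 to 1.288, above them. Aged samples also lie above all young ones in the biliary transcription, transport and surface lists, and below them in the Kupffer and macrophage list.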

How the data were processed

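ATAC-seq was performed by the Omni-ATAC protocol on nuclei of 3 young and 4 aged liver samples. The authors deposited raw read counts per consensus region, not normalized. Before deposit, the authors trimmed reads with cutadapt 1.13, aligned them to GRCm38 with Bowtie2 2.4.1, discarded ambiguous, unpaired, duplicate and mitochondrial alignments, called peaks with MACS2 2.2.7 in each library, kept regions found in 2 or more libraries and counted with featureCounts. The filter on mapping quality can lower counts in repeated sequence. Counts carry no molecular identifiers.

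Libraries were scaled by TMM and tested with edgeR 4.0.16 (R 4.3.3), age being the only factor. All regions were tested, with no filter on low counts. CPM per sample and log2 CPM (prior count 2) came from the same scaling, and 95% intervals from the standard error and the moderated degrees of freedom. Promoters were TSS ± 200 bp. Region coordinates are those of the deposited region names, for which counting from 0 or from 1 is not stated. Copies were sought with minimap2 2.31 (at least 80% of the length at 95% identity). Counts of the 9 pairs of libraries of the same age differed by more than sampling noise (chi-square per degree of freedom 2.47 to 6.10). Alternatives were DESeq2 1.42.0, limma 3.58.1 (voom), other scalings, filters, samples and flanks. The fit was tested on simulated data.

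The members and gene lists were chosen with earlier results of these data known. Named were all members by their promoter region, their strongest other region and every called region, and further genes only where their promoter region was called, apart from defining markers, which were named for their function, and Cdh1 and Bicc1. The RNA-seq, tNET-seq and other data of the study were not analysed here.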

Additional observations from a re-analysis of the deposited data

Results flagged for a closer look

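Values of the 4 aged samples were checked for a sample far from the other 3, in 32 quantities (the 11 regions, the 6 other called promoters, the sums of the gene lists and the ratios within a library), and 2 stood out, where chance gives about 1 in 20. In the intergenic region between Krt8 and Krt18, aged replicate 4 reached 6.64 on the log2 CPM scale, and the others lay between 6.06 and 6.16. In the summed promoter accessibility of the biliary surface and junction genes, aged replicate 4 had 313.2 CPM and the others 285.0 to 289.3 CPM. The same sample was the highest of all 7 at the Krt18 and Sox9 promoters, at 87.7 and 51.7 CPM.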

How the results depend on the processing

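No member was more accessible under any alternative, and the direction at Krt8, at the Sox9 regions behind the gene, at both Sox4 regions, at Epcam and at both Spp1 regions was the same under each alternative that gave a value, but the size was not. The values ran from 0.005 to 0.316 at Krt8, -0.742 to -0.125 and -2.07 to -1.32 at the 2 Sox9 regions, -0.844 to -0.338 and -0.386 to -0.131 at the Sox4 promoter and upstream region, -0.894 to -0.457 at Epcam, and 0.047 to 0.504 and 0.005 to 0.41 at the Spp1 promoter and downstream region. The count of less accessible members fell from 1 to 0 with offsets fitted on mean abundance, a minimum of 10 counts in every sample (where the Sox9 region and Epcam were not tested), thinning to the smallest total (adjusted p = 0.0774 by edgeR), aged replicates 1 and 3 summed (0.0717), a threshold of 0.01 and no flank, and leaving out 1 sample gave 0 to 1. The median over members, -0.053, was -0.175 with total counts in regions, -0.242 with abundance offsets and -0.261 with a flank of 5 kb, 0.062 with the minimum of 10 counts and 0.024 with no flank, and leaving out 1 sample gave -0.183 (aged replicate 4) to 0.006. The median over member promoters, 0.024, was -0.097 with total counts, -0.206 with abundance offsets and -0.097 (aged replicate 4) to 0.094 with 1 sample left out. The Krt18 promoter was at -0.020 with total counts and -0.17 with abundance offsets, its upstream region at -0.017 with the latter, and leaving out 1 sample gave -0.015 to 0.182 at the Krt18 promoter and -0.183 to 0.011 at the Sox9 promoter. Total counts shifted the median of all regions from -0.035 to -0.153. The number of calls over all regions also moved with the settings, as given below. The cause of these changes was not tested.

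Of the other biliary and progenitor promoters, 5 more and 1 less accessible became 2 and 2 with total counts, 0 and 0 with abundance offsets or a threshold of 0.01, and 8 and 2 with offsets on GC content. They became 2 more with the minimum of 10 counts, 1 more with thinning, 1 and 0 with aged replicates 1 and 3 summed, 3 and 2 with 1 and 4 or 3 and 4 summed, 0 less with 2 and 3 and 2 less with 2 and 4 summed, and 0 to 5 and 0 to 2 with 1 sample left out. Calls over all regions moved as well, from 3198 to 3474 with total counts, 697 with abundance offsets and 5627 with offsets on GC content. They were 1327 with the minimum of 10 counts, 432 with thinning and 188 to 4230 with 1 sample left out. With aged replicates summed they were 962 (1 and 3), 3129 (1 and 4), 2154 (3 and 4), 1806 (2 and 3) and 4742 (2 and 4).

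Young and aged replicates of the same number share only a number. The correlations of their deviations from the group means were -0.119, 0.0565 and 0.0298, and of the young samples only number 2 was closest to its own number. A replicate block, in which aged replicate 4 has no partner and adds nothing, kept the Sox9 call with 1 less accessible member, gave medians of -0.196 and -0.104, put the Krt18 promoter at -0.013 and left 1 more and 2 less accessible promoters in the other list, with 4078 calls over all regions against 3198. Counts of 5 to 29 per aged library at the called Sox9 region and at Epcam limit what could be detected there.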

Other observations

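Around the member genes, 21 further regions lay between 10 and 50 kb away, but none near Krt7 or Krt19. Of the 21, 0 were called in either direction by edgeR (over all regions 5.74%). An unadjusted p under 0.05 was found for 4, against 24.6% of all regions. Every aged sample lay below every young one in 3 of the 21, of which 2 were the Sox9 regions described above, and above in 0. Over all regions these patterns held for 11.6% and 10.2%. The 21 had a median log2 fold change of -0.026.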
